A study of Mus musculus with 28 samples.

Results

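Late in the reprogramming of mouse fibroblasts, the cells that had gained the surface antigen SSEA1 were set against the cells that still carried the fibroblast surface protein Thy1. The comparison used 4 of the 28 arrays of the series, chosen by their labels as the SSEA1+ and the Thy1+ fraction of day 9 and of day 12. SSEA1+ cells were labelled Thy1-negative, SSEA1-positive and GFP-negative, and Thy1+ cells Thy1-positive, SSEA1-negative and GFP-negative. All 4 arrays carried the name M2, so each fraction had 1 array a day and the fractions were compared within a day. The cells came from embryonic fibroblasts (MEFs) of embryonic day 13.5 of a C57BL6/129 mouse strain. It carries the reprogramming factors (OKSM) in a cassette that doxycycline turns on through the Rosa26-M2rtTA allele. The labels allow 1 or 2 copies of both and do not say which a sample had, nor which gene drives GFP. All sorted cells were grown with doxycycline in medium with serum and LIF, so the Thy1+ cells were exposed to the inducer as long as the SSEA1+ cells. The same table of 24 arrays held MEFs (2 arrays), iPS cells (3), both fractions on days 3 and 6 (2 arrays each), Thy1- SSEA1- cells of each day and SSEA1+ GFP+ cells of day 12.

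Induced pluripotency starts with the loss of the fibroblast programme and a mesenchymal-to-epithelial transition, and the endogenous pluripotency network is switched on afterwards. Thy1 is lost early on this path and SSEA1, a fucosylated carbohydrate, is gained before the late pluripotency genes. Cells that keep Thy1 under the factors rarely give iPS colonies, so the sort separates cells that follow the path from cells that largely do not.

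The sort was visible in the RNA of Thy1 and Fut9, as a check of the labels and not a result. Thy1 had log2 signals of 8.88 and 8.17 in SSEA1+ cells of days 9 and 12, against 11.55 and 11.44 in Thy1+ cells and 11.79 and 11.8 in MEFs. Fut9, the fucosyltransferase that makes the SSEA1 epitope, had 6.21 and 6.41 in SSEA1+ cells, against 3.44 and 3.46 in Thy1+ cells. Of the fibroblast genes, Col1a1 had 12.64 and 12.58 in Thy1+ cells, against 13.18 and 13.21 in MEFs, and Prrx1 12.31 and 12.24, against 12.35 and 12.43. Thy1+ cells were nonetheless below both MEF arrays at 17 of 21 collagen genes on each day, and at 16 (day 9) and 13 (day 12) of 25 mesenchymal factor genes. The 4 arrays had medians of 6.942 and 6.903 in SSEA1+ cells and 6.948 and 6.921 in Thy1+ cells. The 3′ minus 5′ signal of the Gapdh controls, a sign of RNA integrity, was 0.818 and 0.829 in SSEA1+ cells and 0.98 and 1.11 in Thy1+ cells, and that of the beta-actin controls 0.836 and 1.02 against 0.832 and 0.884. The middle 18S rRNA control had 10.819 and 11.512 in SSEA1+ cells, against 10.169 and 12.058 in Thy1+ cells. The part of RNA integrity in the differences below was not tested. In bulk RNA of a sorted fraction, fewer cells of a kind and less RNA per cell cannot be told apart.

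A difference here is the log2 signal of SSEA1+ cells minus that of Thy1+ cells, and the late difference is the mean of the day 9 and day 12 differences, given with its standard error (SE). A gene was called with a Benjamini-Hochberg adjusted p under 0.05 in limma over 11807 genes and at least a 2-fold difference in the same direction on both days. With 1 array per group, the spread was that of the groups with replicates, and nothing says that those replicates came from separate animals. The 2 fractions differed widely, with 1490 genes called (12.6% of those tested). SSEA1+ cells were higher at 617 (5.23%) and lower at 873 (7.39%). The median late difference of all genes was 0.06. Day 9 alone gave 1537 calls (13.0%), of which 615 (5.21%) were higher and 922 (7.81%) lower in SSEA1+ cells. Day 12 gave 2179 (18.5%), with 1058 (8.96%) higher and 1121 (9.49%) lower. The 2 days share no array, and their differences correlated at a Pearson's r of 0.9 across the 11807 genes, which are not independent replicates. Of the genes called higher, 560 were shared, 91.1% of the day 9 list and 52.9% of the day 12 list. Of those called lower, 799 were shared, 86.7% of the day 9 list and 71.3% of the day 12 list. Of the 1359 genes called on both days, 0 were called in opposite directions.

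**Figure D1:**
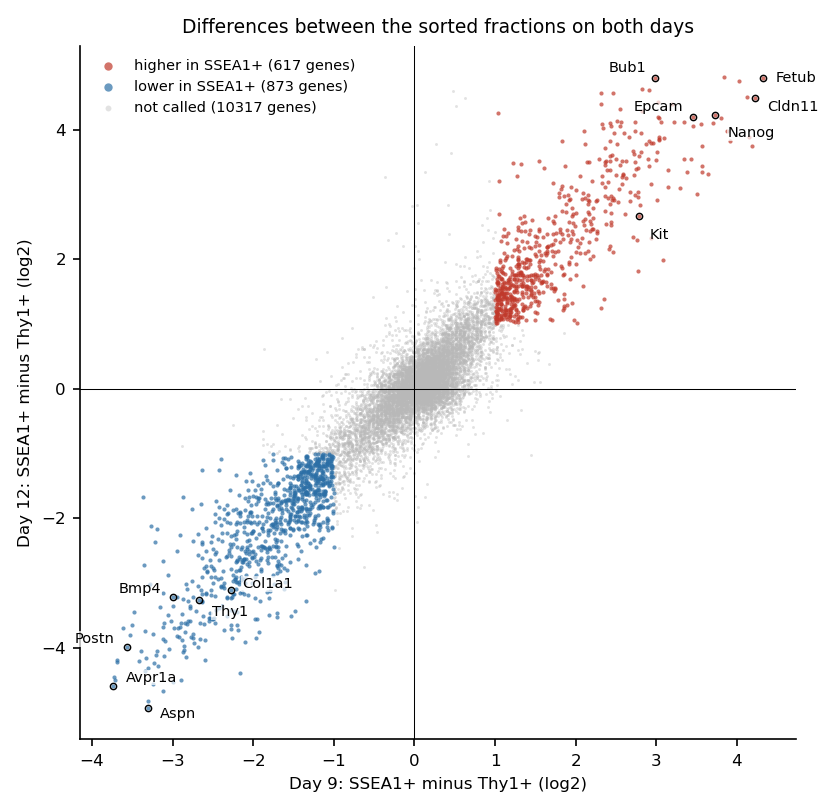
Log2 difference of SSEA1+ minus Thy1+ cells on day 9 (x axis) and day 12 (y axis), 1 point per gene, with 1 array per fraction and day. Red points are the 617 genes called higher and blue points the 873 called lower in SSEA1+ cells. They lie in opposite corners, and named genes carry a ring.

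The 15 genes with the largest late differences in each direction came from different programmes. Higher in SSEA1+ cells were the pluripotency genes Nr0b1, Nanog, Sall4 and Eras, the epithelial genes Epcam, Pkp1, Krtdap, Mpzl2 and Cldn11, and the mitotic kinase gene Bub1. The others were Fetub (a secreted protease inhibitor), Lrmp, Bex2, Bex4 and Kcnk1 (a potassium channel), and the 15 late differences ran between 3.82 and 4.56. Lower in SSEA1+ cells were secreted and matrix proteins (Aspn, Postn, Smoc2, Igfbp4, Itgbl1, C1qtnf3, Islr, Cpxm2, Mmp2), the vasopressin receptor Avpr1a and the enzymes Fmo1 and Cdo1. With Medag, Serpinb9 and Ifi205 they make the 15, with late differences between -4.17 and -3.75. Fetub was highest of all, 23.6-fold above Thy1+ cells, and Avpr1a lowest, 17.9-fold below them.

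**Figure D2:**
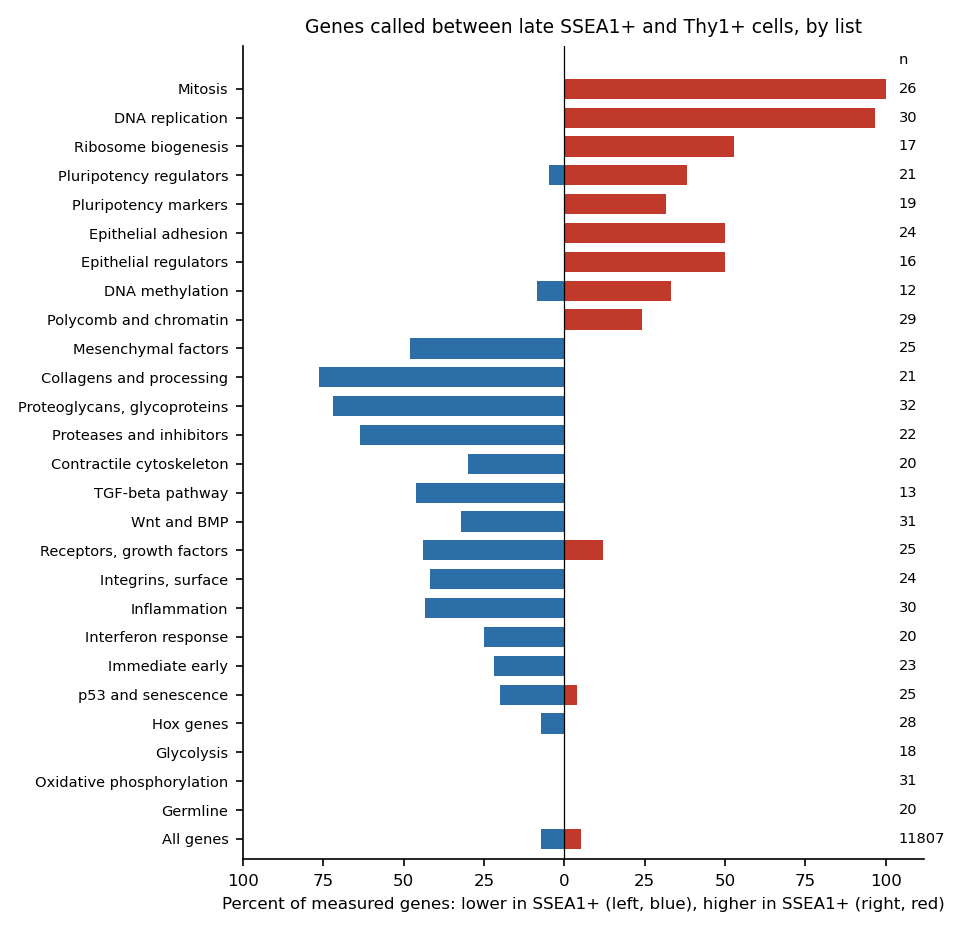
Share of the measured genes of each list, in percent, that were called lower (blue, left) or higher (red, right) in late SSEA1+ than in Thy1+ cells; n is the number measured. The mitosis bar fills 100 percent on the higher side, the matrix bars lie on the lower side, and the bottom bars show all 11807 genes.

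Part of the pluripotency network was higher in SSEA1+ than in Thy1+ cells. Of 21 measured regulators, 8 were called higher in SSEA1+ cells (Nr0b1, Nanog, Sall4, Lin28a, Nr5a2, Mybl2, Pou5f1 and Sall1) and 1 lower (Klf4), with a median difference of 1.56. Thy1+ cells were above both MEF arrays at 13 of the 21 on day 9 and 17 on day 12, and SSEA1+ cells at 17 on each day. The median level of the list on day 12 was 7.52 in SSEA1+ and 5.45 in Thy1+ cells, against 4.59 in MEFs and 10.8 in iPS cells. Lin28a lost its call with quantile scaling and with the mean of its probe sets. Nanog, a homeodomain factor at the centre of the network, had log2 signals of 9.11 and 10.62 in SSEA1+ cells of days 9 and 12, against 5.37 and 6.4 in Thy1+ cells. That was 15.8-fold (3.98 ± 0.4 SE, adjusted p = 2.55e-06), and MEFs had 4.88 and 5.05, so Nanog in Thy1+ cells was above MEFs by more on day 12 than on day 9. Nr0b1, an orphan nuclear receptor of embryonic stem cells, had 9.17 and 9.75 in SSEA1+ cells, against 5.14 and 5.0 in Thy1+ cells (21.0-fold, 4.39 ± 0.14, adjusted p = 7.19e-10). Sall4, a zinc-finger partner of Nanog, had 9.38 and 11.49 in SSEA1+ cells, against 5.51 and 7.51 in Thy1+ cells. Sall4 had a higher signal on day 12 than on day 9 in both fractions, and its late difference was 3.93 ± 0.44. Pou5f1, which encodes Oct4, had 6.85 and 8.86 in SSEA1+ cells, against 5.48 and 6.27 in Thy1+ cells (1.98 ± 0.21), far below the iPS arrays at 11.77 to 11.91.

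Other core genes were at least 2-fold apart on day 12 and not on day 9. Sox2 had 3.88 and 8.95 in SSEA1+ cells, against 3.25 and 4.46 in Thy1+ cells, so the day 9 difference stayed under 2-fold and the gene was not called. Dppa5a, a marker of embryonic stem cells, had 6.23 and 11.69 in SSEA1+ cells, against 5.72 and 7.33 in Thy1+ cells, and was not called either. Pou5f1, Sox2, Klf4 and Myc are reprogramming factors too, so RNA of the transgenes could add to their signals. Klf4 was lower in SSEA1+ cells (9.4 and 9.73, against 10.84 and 11.07 in Thy1+ cells; -1.39 ± 0.17), and Myc was 9.66 and 9.59 against 9.33 and 9.07, not called. Of 19 other pluripotency markers, 6 were called higher and 0 lower. They were Eras, a Ras-like gene of embryonic stem cells (7.51 and 9.01 in SSEA1+ cells, against 3.67 and 4.2 in Thy1+ cells), the ligand gene Nodal (8.04 and 8.82, against 5.56 and 5.91), and Fbxo15, Upp1, Podxl and Slc2a3. The last 4 were above MEFs in Thy1+ cells too: Fbxo15 had 9.96 and 10.0 in SSEA1+ cells and 8.3 and 7.36 in Thy1+ cells, with a MEF mean of 3.66. Of the 20 germline genes 0 were called late, while Rhox5, Stag3, Rec8, Dppa3 and Tex19.1 (5 of 20) were called higher on day 12 alone, against 8.96% of all genes. Ddx4 had 3.18 and 3.75 in SSEA1+ cells and 3.1 and 3.24 in Thy1+ cells, with an iPS mean of 9.17.

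Epithelial genes were higher in SSEA1+ cells. Of 24 adhesion and keratin genes, 12 were called higher and 0 lower (median 1.27), and of 16 regulators of epithelial identity 8 were higher and 0 lower (median 1.3). Epcam, the epithelial adhesion molecule, had 9.57 and 10.87 in SSEA1+ cells, against 6.11 and 6.68 in Thy1+ cells (14.2-fold, 3.83 ± 0.25, adjusted p = 3.89e-08). Cdh1, which encodes E-cadherin, had 9.06 and 10.55 in SSEA1+ cells, against 5.71 and 6.43 in Thy1+ cells (13.3-fold). Both Thy1+ levels of Cdh1 lay above MEFs, at 4.16 and 3.5. The desmosomal gene Dsp had 9.23 and 10.27 in SSEA1+ cells, against 6.04 and 5.87 in Thy1+ cells (13.8-fold), and the keratin gene Krt8 had 9.07 and 10.08 against 5.5 and 6.74. Tight-junction genes were included: Cldn7 (late difference 2.94), Lsr (2.66), Cldn6 (1.61), Ocln (1.31) and Cldn3 (1.25) were all called. Krt18, the partner keratin of Krt8, was 6.55 and 8.99 in SSEA1+ cells and 5.86 and 7.6 in Thy1+ cells, and was not called. Among the regulators, the splicing factor gene Esrp1 had 6.21 and 8.88 in SSEA1+ cells, against 3.9 and 4.48 in Thy1+ cells. The membrane protease inhibitor gene Spint1 had 10.2 and 10.34 against 6.57 and 7.02, and the transcription factor genes Tfap2c (3.26), Grhl2 (2.5) and Tfap2a (2.3) differed in the same direction.

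Many epithelial promoters carry E-boxes of the kind bound by the Snail and Zeb repressors. The letters CACCTG, or CAGGTG on the other strand, were searched in the 300 bases around each start site (250 before, 50 after) in RefSeq, build GRCm38.p6. Of the 16 measured adhesion genes with an entry, 14 held the motif (87.5%), as did 4 of the 8 epithelial regulators (50.0%) and 5413 of all 27025 promoters (20.0%). A match is a description of the letters and not a bound site. The promoters of Epcam and Dsp are shown because both genes differed over 13-fold, as the gene strand 5′ to 3′ to 25 bases past the start, with the E-boxes in capitals. In Epcam (chr17:87635729-87636003, plus strand) they begin 187 and 19 bases before the start site, and in Dsp (chr13:38151044-38151318, plus strand) 3 bases after it.
Epcam: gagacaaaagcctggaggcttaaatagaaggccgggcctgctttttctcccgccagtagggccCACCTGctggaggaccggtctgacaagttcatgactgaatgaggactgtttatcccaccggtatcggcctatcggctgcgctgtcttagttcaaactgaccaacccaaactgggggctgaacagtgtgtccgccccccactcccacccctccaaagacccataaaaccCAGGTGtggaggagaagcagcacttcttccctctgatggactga
Dsp: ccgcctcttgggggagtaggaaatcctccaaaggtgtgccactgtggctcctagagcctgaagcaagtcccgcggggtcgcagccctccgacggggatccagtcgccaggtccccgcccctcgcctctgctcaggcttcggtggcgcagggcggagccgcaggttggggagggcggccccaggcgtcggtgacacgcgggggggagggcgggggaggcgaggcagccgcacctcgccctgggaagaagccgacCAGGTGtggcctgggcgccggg

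Transcription factor genes of mesenchymal identity ran the other way, with 12 of 25 called lower and 0 higher in SSEA1+ cells (median -1.38). Prrx1, a homeobox factor of limb and facial mesenchyme, had 10.12 and 8.51 in SSEA1+ cells, against 12.31 and 12.24 in Thy1+ cells (7.78-fold lower, -2.96 ± 0.23, adjusted p = 2.44e-07). Twist2 had 5.9 and 5.81 in SSEA1+ cells, against 8.45 and 8.45 in Thy1+ cells, while both MEF arrays were higher still (10.41 and 10.46). Of the repressors that bind such E-boxes, Snai2 (5.54 and 5.1 in SSEA1+ cells, against 7.66 and 7.23 in Thy1+ cells), Snai1 (late difference -1.64) and Zeb2 (-1.38) were called lower. Zeb1 had 10.64 and 10.32 in SSEA1+ cells and 11.48 and 11.74 in Thy1+ cells, and was not called since the day 9 difference was under 2-fold. Snai1 and Snai2 in Thy1+ cells lay below their MEF means of 8.54 and 10.18. Runx1, Foxc2, Ebf1, Nr2f1, Twist1, Meox2 and Prrx2 completed the 12. For Runx1, 4 of 5 probe sets agreed in sign, and its call was lost with median and with quantile scaling. Of 28 Hox genes, which record the body position of fibroblasts, Hoxc8 (-3.01 ± 0.31) and Hoxc4 (-1.84) were called lower and 0 higher, a share near the 7.39% of all genes. On day 12 alone 10 were lower (9.49% of all genes), and on day 9 alone 2 were lower and 1, Hoxd10, higher.

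Cell-cycle genes were higher in SSEA1+ cells almost throughout. All 26 measured genes of mitosis were called higher in SSEA1+ cells (median 3.22), and so were 29 of 30 genes of DNA replication (median 2.36), the exception being Rrm1. Cdc20, the activator of the anaphase-promoting complex, had 10.49 and 10.24 in SSEA1+ cells, against 7.4 and 6.38 in Thy1+ cells (11.1-fold, 3.48 ± 0.14, adjusted p = 9.9e-10). The kinase gene Bub1 had 9.63 and 10.17 in SSEA1+ cells, against 6.65 and 5.38 in Thy1+ cells, and the cyclin gene Ccnb2 9.93 and 10.03 against 7.42 and 5.9. The Thy1+ levels went below those of MEFs, which were 7.91 and 7.8 for Bub1 and 8.3 and 7.96 for Ccnb2. Across the mitosis list, 25 of 26 genes in Thy1+ cells of day 12 were below both MEF arrays and 0 above both. On day 9 those counts were 23 and 1, while in SSEA1+ cells all 26 genes were above both MEF arrays on both days. Mcm5, a subunit of the replicative helicase, had 9.37 and 9.62 in SSEA1+ cells, against 6.35 and 5.2 in Thy1+ cells (13.1-fold). Kif23 was read by 2 probe sets of opposite sign.

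Promoters of mitotic genes often hold a cell-cycle homology region (CHR, TTTGAA or TTCAAA) near CCAAT boxes (CCAAT or ATTGG), the binding sites of the DREAM and MuvB complexes and of NF-Y. In the same windows, 14 of 21 mitotic genes with an entry held both motifs (66.7%), against 2 of 25 replication genes (8.0%) and 1925 of all 27025 promoters (7.12%). CCAAT boxes alone were in 18 mitotic (85.7%), 15 replication (60.0%) and 37.9% of all promoters. The 2 motifs do not overlap in the sequences printed. Cdc20 (chr4:118437319-118437593, minus strand) and Ccnb2 (chr9:70421530-70421804, minus strand) are shown because both genes differed about 10-fold, read along the gene to 25 bases past the start, with both motifs in capitals. In Cdc20 the CHR begins 18 bases and the CCAAT boxes 53 and 8 bases before the start site. In Ccnb2 a CHR begins 167 bases before and another 4 bases after the start site, and the CCAAT boxes begin 87, 54 and 21 bases before it.
Cdc20: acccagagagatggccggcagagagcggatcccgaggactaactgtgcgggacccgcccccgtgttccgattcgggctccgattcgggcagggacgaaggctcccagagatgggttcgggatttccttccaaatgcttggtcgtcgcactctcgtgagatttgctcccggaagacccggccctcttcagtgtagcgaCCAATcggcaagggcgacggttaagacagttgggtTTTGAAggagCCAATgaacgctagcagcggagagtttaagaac
Ccnb2: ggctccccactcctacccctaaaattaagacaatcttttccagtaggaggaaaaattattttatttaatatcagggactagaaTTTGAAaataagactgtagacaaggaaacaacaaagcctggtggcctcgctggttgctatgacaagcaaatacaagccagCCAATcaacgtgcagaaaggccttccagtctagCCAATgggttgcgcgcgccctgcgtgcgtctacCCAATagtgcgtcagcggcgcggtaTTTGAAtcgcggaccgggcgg

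Genes that work with replication and growth shared this direction in part. Of 17 ribosome biogenesis genes, 9 were called higher and 0 lower in SSEA1+ cells (median 1.27), among them Nhp2 (1.68), Rrp12 (1.67) and the nucleolar methyltransferase gene Fbl (1.4). Of 12 genes of DNA methylation, 4 were higher and 1 lower. Uhrf1, which brings the maintenance methyltransferase to newly made DNA, had 11.34 and 11.63 in SSEA1+ cells, against 8.3 and 7.77 in Thy1+ cells, and Dnmt1 had 9.71 and 9.85 against 7.45 and 7.53. The de novo methyltransferase gene Dnmt3b had 8.07 and 9.88 in SSEA1+ cells, against 6.28 and 6.92 in Thy1+ cells, and Tdg (1.29) was the other one called higher. The cytidine deaminase gene Apobec1 was lower in SSEA1+ cells (7.37 and 7.04, against 9.67 and 9.52 in Thy1+ cells), with MEFs lower than either at 6.21 and 6.36. Among 29 Polycomb and chromatin genes, 7 were higher and 0 lower: Hells (8.61 and 9.31 in SSEA1+ cells, against 5.04 and 5.56 in Thy1+ cells), Ezh2 (10.51 and 10.81, against 8.43 and 8.48), Phc1, Wdr5, Prmt5, Mtf2 and Jarid2. Energy metabolism had 0 late calls among 18 glycolysis and 31 oxidative phosphorylation genes, with median late differences of 0.44 and 0.36. Hk2, Pdk1, Pfkl and Pfkp (4 of 18 glycolysis genes) were called higher on day 12 alone, against 8.96% of all genes. Hk2, the first glycolytic enzyme, came nearest with 11.27 and 11.2 in SSEA1+ cells and 10.44 and 10.02 in Thy1+ cells.

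Extracellular matrix genes were lower in SSEA1+ cells. Of 21 collagens and collagen-processing genes, 16 were called lower and 0 higher (median -2.27). Col1a1, the main chain of type I collagen, had 10.37 and 9.46 in SSEA1+ cells, against 12.64 and 12.58 in Thy1+ cells (6.45-fold lower, -2.69 ± 0.29). Loxl1, which crosslinks elastin, had 7.66 and 6.98 in SSEA1+ cells, against 10.5 and 11.12 in Thy1+ cells (11.2-fold lower). Of 32 proteoglycans and glycoproteins, 23 were lower and 0 higher (median -2.0). Aspn, a small leucine-rich proteoglycan, had 6.13 and 5.65 in SSEA1+ cells, against 9.44 and 10.57 in Thy1+ cells (17.3-fold lower, -4.12 ± 0.22, adjusted p = 9.98e-09). Postn, the matricellular protein periostin, had 6.81 and 5.93 in SSEA1+ cells, against 10.38 and 9.92 in Thy1+ cells, and both MEF arrays were at 12.62 and 12.74. The elastic-fibre genes Eln (-3.34), Ltbp2 (-3.53), Mfap5 (-3.07) and Fbln5 (-2.46) were called. The matrix glycoprotein genes Sparc (12.62 and 12.49 in SSEA1+ cells, against 13.04 and 13.07 in Thy1+ cells) and Fn1 (11.41 and 11.13, against 12.4 and 12.35) were not called.

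Proteases and their inhibitors followed, 14 of 22 lower and 0 higher in SSEA1+ cells (median -2.29). The gelatinase gene Mmp2 had 7.11 and 6.33 in SSEA1+ cells, against 10.44 and 10.49 in Thy1+ cells (13.4-fold lower). Fap, the fibroblast activation protease, had 4.62 and 4.37 against 7.83 and 8.48, and the membrane-bound Mmp14 6.68 and 6.53 against 9.68 and 9.9. The inhibitors Timp2 (-2.6) and Timp3 (-2.25) were lower with them, while Timp1 was not called. Of 20 contractile genes only 6 were called lower and 0 higher: Mylk (6.83 and 7.06 in SSEA1+ cells, against 9.9 and 9.93 in Thy1+ cells), Myl9, Tpm2, Lmod1, Pdlim7 and Cnn2. The intermediate filament gene Vim stayed at 12.97 and 12.93 in SSEA1+ cells and 13.12 and 13.04 in Thy1+ cells. Of 24 integrins and surface proteins, 10 were lower and 0 higher, led by the mesenchymal cadherin gene Cdh11 (-3.02), Cd248 (-2.64) and Alcam (-2.56).

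Ligands, receptors and targets of the TGF-beta family were lower in SSEA1+ cells. In a list of 13, 6 were lower and 0 higher (median -1.33). The ligand genes Inhba (6.08 and 5.72 in SSEA1+ cells, against 9.03 and 8.93 in Thy1+ cells) and Tgfb3 (6.29 and 5.68, against 8.77 and 9.3) each differed over 8-fold. The receptor gene Tgfbr2 (-1.83, 2 of 3 probe sets with this sign), the latent-complex gene Ltbp3 (-2.59) and the targets Tgfbi (-2.16) and Smad7 (-2.13) completed the 6. Among 31 genes of Wnt and BMP signalling, 10 were lower and 0 higher, but the median of the list was only -0.16. Bmp4 had 6.15 and 6.06 in SSEA1+ cells, against 9.15 and 9.28 in Thy1+ cells, which was above the 7.91 and 7.99 of MEFs. Its targets Id1 (-1.39) and Id3 (-2.08), the ligands Wnt5a (-1.79) and Wnt5b (-1.35), the receptor Fzd2 (-1.39) and the secreted inhibitors Dkk2 (-3.47), Dkk3 (-2.16), Sfrp2 (-1.78) and Grem1 (-1.2) were the others. Grem1 passed on the mean of both days and on neither day alone.

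Growth factors and receptors showed a ligand and its receptor on opposite sides. Kit, a receptor tyrosine kinase of stem and germ cells, had 5.66 and 5.89 in SSEA1+ cells, against 2.87 and 3.23 in Thy1+ cells. Kit is among the dimmest 25% of genes and the values carry no detection call, so no fold is given. Its ligand gene Kitl had 5.7 and 5.69 in SSEA1+ cells, against 8.57 and 8.94 in Thy1+ cells (8.35-fold lower, -3.06 ± 0.27). Genes of the insulin-like growth factor system lay on both sides. The binding protein gene Igfbp2 had 9.83 and 11.43 in SSEA1+ cells, against 7.12 and 7.75 in Thy1+ cells, while Igf1 (-2.55), Igfbp3 (-1.17), Igfbp4 (-4.09), Igfbp5 (-2.84) and Igfbp6 (-2.2) were lower. Of the 25 genes of this list 3 were higher and 11 lower. Pdgfrb, a receptor of mesenchymal cells, had 7.96 and 7.65 in SSEA1+ cells, against 10.77 and 10.92 in Thy1+ cells, and Pdgfc, Fgf7, Vegfc and Egfr were also lower. Only 3 of 5 Egfr probe sets had this sign. Fgfr2, the third of the higher genes, passed on the mean of both days and on neither day alone.

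Secreted inflammatory genes were higher in Thy1+ cells. In a list of 30, 13 were lower in SSEA1+ cells and 0 higher (median -0.95). The cytokine gene Il6 had 2.92 and 3.02 in SSEA1+ cells, against 4.71 and 5.49 in Thy1+ cells and 7.12 and 7.1 in MEFs. The chemokine gene Cxcl1 had 6.39 and 6.54 in SSEA1+ cells, against 7.92 and 10.05 in Thy1+ cells, and Ptgs2, the inducible prostaglandin synthase, 5.2 and 4.78 against 7.77 and 7.93. Lcn2 and Ccl8 were above MEFs in Thy1+ cells: Lcn2 had 5.77 and 6.06 in SSEA1+ cells and 7.5 and 8.38 in Thy1+ cells, with a MEF mean of 4.18. Of 20 interferon-response genes 5 were lower and 0 higher (Ifit2, Ifih1, Usp18, H2-D1 and H2-K1), and 4 of 5 H2-D1 and 3 of 4 H2-K1 probe sets had that sign. Of 23 immediate early genes, whose RNA also responds to handling, 5 were lower and 0 higher (Egr2, Ier3, Nr4a1, Junb and Dusp1), while Fos had 12.08 and 12.27 in SSEA1+ cells and 12.32 and 12.89 in Thy1+ cells. Among 25 genes of p53 and senescence, 1 was higher (Perp) and 5 lower. For these lists, the shares of all genes were 5.23% higher and 7.39% lower. The cell-cycle inhibitor genes Cdkn2b (8.03 and 7.73 in SSEA1+ cells, against 10.34 and 9.96 in Thy1+ cells) and Cdkn1c (7.91 and 7.44, against 9.89 and 10.35) were lower. Cdkn1a (11.27 and 10.97, against 11.58 and 11.25) and Cdkn2a (9.35 and 8.5, against 9.42 and 9.3) were not called.

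Most listed markers of other cell types were not called. The lists do not hold every such gene: Krtdap and Ripk4, of epidermal differentiation, and the neural factor gene Zic2 lie outside them and were called higher in SSEA1+ cells. In either direction, 16.7% of neural and of adipocyte, cartilage and bone genes, 14.3% of endothelial and 12.5% of endoderm genes were called. The shares were 10.0% of epidermal and of macrophage genes and 4.35% of muscle genes. Of all genes 12.6% were called (5.23% higher and 7.39% lower), and each list share rests on few genes. Of 18 neural genes, 3 were higher and 0 lower (Nefl, Tubb3 and Neurog2). The neurofilament gene Nefl had 7.26 and 7.91 in SSEA1+ cells, against 4.82 and 5.06 in Thy1+ cells. Of 20 epidermal genes, 2 were higher and 0 lower: Lgals7 had 7.82 and 8.91 in SSEA1+ cells, against 5.41 and 5.53 in Thy1+ cells, and Krt6b, which has a near-identical copy, 4.84 and 6.66 against 3.3 and 3.14. The basal keratins Krt5 and Krt14 were not called. Summed over the list, neural signals on the linear scale were 2569 and 3570 in SSEA1+ cells, against 2117 and 1333 in Thy1+ cells, and epidermal signals 5351 and 4001 against 4042 and 2208. Of 20 macrophage genes 1 was higher (Laptm5) and 1 lower (Cd14), with sums of 1230 and 1008 in SSEA1+ cells and 807 and 750 in Thy1+ cells, and the pan-leukocyte gene Ptprc at 3.4 and 2.96 against 2.98 and 3.1. Of 14 endothelial genes Plvap and Flt1 were lower, with sums of 2527 and 2167 in SSEA1+ cells and 3105 and 3001 in Thy1+ cells, and the endothelial cadherin gene Cdh5 at 4.83 and 4.79 against 4.46 and 4.67. The adipocyte, cartilage and bone list had 3 of 18 lower (Cebpa, Lpl and Fabp4), with sums of 1533 and 1831 in SSEA1+ cells and 3858 and 5936 in Thy1+ cells. Of 16 endoderm genes Lama1 was higher and Dab2 lower, with sums of 7904 and 5844 in SSEA1+ cells and 13206 and 11483 in Thy1+ cells. Of 23 muscle genes Pax7 was higher (5.04 and 5.62, against 3.57 and 3.85), with sums of 1043 and 1333 in SSEA1+ cells and 1341 and 1198 in Thy1+ cells. Trophoblast (14) and erythroid (9) genes had 0 calls, with sums of 621 and 665 against 603 and 673 and of 253 and 270 against 242 and 257. The part of such cells in the differences was not tested. Of 11 housekeeping genes, Tfrc was called higher (2.15).

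**Figure D3:**
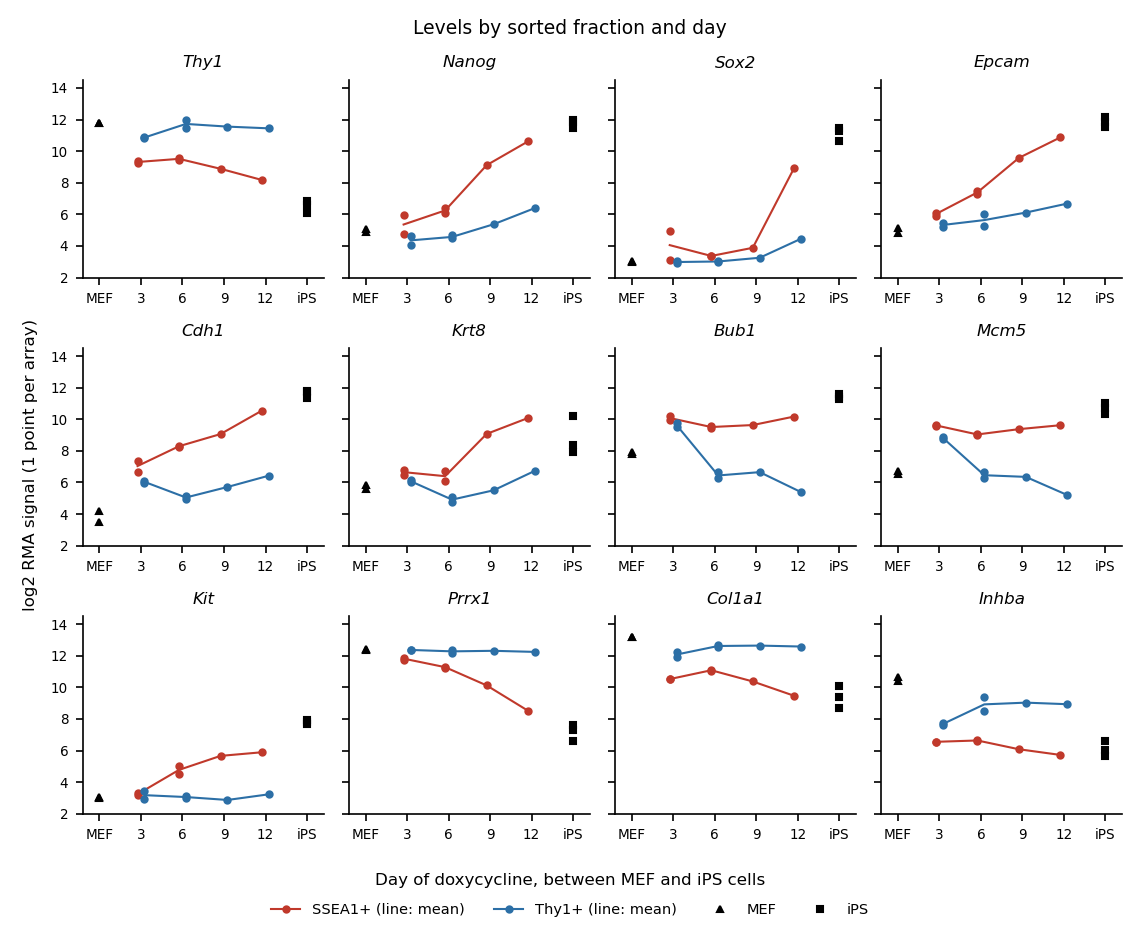
Log2 RMA signal of 12 genes (y axis) in SSEA1+ (red) and Thy1+ (blue) cells on days 3, 6, 9 and 12, with MEFs on the left (triangles) and iPS cells on the right (squares); each point is 1 array and lines join means. Nanog and Epcam of SSEA1+ cells climb toward iPS cells, Bub1 of Thy1+ cells drops after day 3 below MEFs, and Sox2 separates only on day 12.

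Many of the late differences were already called on day 6. The standard deviation of the differences over all genes was 0.333 on day 3, 0.678 on day 6, 0.79 on day 9 and 0.984 on day 12. Days 3 and 6 are means of 2 arrays per fraction and days 9 and 12 single arrays, so these spreads differ in noise and are not compared. Day 3 itself gave 204 calls (1.73%), 37 higher (0.313%) and 167 lower (1.41%), and day 6 gave 1433 (12.1%), 695 higher (5.89%) and 738 lower (6.25%). Of the 2 day 6 Thy1+ arrays, M2 had 3′ minus 5′ signals of 1.78 (Gapdh) and 1.487 (beta-actin), against 0.934 and 0.791 in M3. The day 6 calls without M2 were not computed. Of the 617 genes higher late, 30 were also called higher on day 3 (4.86%) and 396 on day 6 (64.2%). Of the 873 lower late, 153 were called lower on day 3 (17.5%) and 514 on day 6 (58.9%). Neither early day called 221 of the higher genes (35.8%) and 344 of the lower ones (39.4%), and 0 late genes were called in the opposite direction on day 3 or day 6. Thus Bub1 differed by 0.45 on day 3 and 3.06 on day 6, and Mpzl2 already by 3.16 on day 3, while Esrp1 differed by only 0.48 on day 6, against 2.31 on day 9.

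The late difference minus the mean difference of days 3 and 6 passed the test for 706 genes (5.98%), 311 higher (2.63%) and 395 lower (3.35%). The largest upward shifts of the difference were at Ripk4 (3.23 ± 0.24), Krtdap (3.17), Eras (3.16), Nr0b1 (3.12), the claudin gene Cldn7 (3.0), Kcnk1 (2.93), Fetub (2.86) and the neural factor gene Zic2 (2.86). Ripk4, a kinase of epidermal differentiation, differed by -0.15, 0.56, 2.31 and 4.56 on days 3, 6, 9 and 12. The largest downward shifts, toward higher levels in Thy1+ cells, were at Hsd11b1 (-2.84), Fmo2 (-2.74), Dkk2 (-2.69), Chodl (-2.61), the oxidase gene Nox4 (-2.51), Alcam (-2.49), Abca8a (-2.48) and Avpr1a (-2.44). Dkk2, a Wnt inhibitor, differed by 0.09, -1.64, -3.48 and -3.45 on the 4 days. By list, the difference shifted upward at 23 of 26 mitotic, 11 of 21 pluripotency regulator and 10 of 24 epithelial adhesion genes. It shifted downward at 15 of 32 proteoglycans and glycoproteins. The early value averages days 3 and 6, and the mitosis list had 0 calls on day 3 but 26 on day 6. Its median difference was 0.45 on day 3, 2.37 on day 6 and 2.49 on day 9. Pluripotency regulators had medians of 0.28, 0.15 and 0.79 on those days, and epithelial adhesion genes 0.12, 0.12 and 1.01. The day 6 values include the Thy1+ M2 array, with a 3′ minus 5′ Gapdh signal of 1.78, against 0.934 in M3. With M3 left out, the day 6 Thy1+ level rests on M2 alone. The count was 202 without both day 12 arrays, 321 against day 6 alone and 999 against day 3 alone. Of the 8 early arrays left out singly, the day 6 Thy1+ M3 array gave 1067 and the others between 623 and 735.

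Between day 9 and day 12 the gap widened by any amount for 517 of the 617 higher genes (83.8%) and 660 of the 873 lower ones (75.6%), and the difference was larger in size on day 12 at 59.4% of all genes. It was at least 2-fold wider at 80 (13.0%) of the higher and 90 (10.3%) of the lower genes. The change in difference itself passed the test for 30 genes (0.254%), 25 upward (0.212%) and 5 downward (0.0423%), with 1 array behind each of its 4 values. By list, 3 of 21 pluripotency regulators, 2 of 19 pluripotency markers and 4 of 26 mitosis genes passed. Dppa2, a chromatin factor of early embryos, had 3.78 and 8.73 in SSEA1+ cells, against 3.29 and 4.13 in Thy1+ cells, a change of 4.12 ± 0.73 (adjusted p = 0.0337), and lost its call when the iPS arrays were left out of the fit. Lin28a, which blocks let-7 maturation, had 4.72 and 9.57 in SSEA1+ cells, against 3.69 and 5.31 in Thy1+ cells (3.23 ± 0.34, adjusted p = 0.0025). Trim6 (3.63), Trap1a (3.5), Zfp42 (3.21), Otx2 (3.19), Dppa4 (2.85) and Fabp3 (2.81) followed, each under 2-fold apart on day 9. Zfp42, which encodes Rex1, reached 6.82 in SSEA1+ cells of day 12, while GFP+ cells of that day had 9.87. The difference shifted downward, toward higher levels in Thy1+ cells, for the steroid enzyme gene Hsd11b1 (-2.23), the collagenase gene Mmp13 (-2.14), Wnt16 (-1.94), Fbln1 (-1.8) and Trappc3 (-1.66). Hsd11b1 had 5.73 and 5.98 in SSEA1+ cells, against 7.9 and 10.38 in Thy1+ cells, with SSEA1+ cells at the level of MEFs (mean 5.86). The list members that also passed were Bub1, Birc5, Ccnb2, Ccna2, Esrp1, Dsg2, Krt6b and Stmn2. Without the day 6 Thy1+ M2 array, whose 3′ minus 5′ Gapdh signal of 1.78 stood apart, 122 genes passed.

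**Figure D4:**
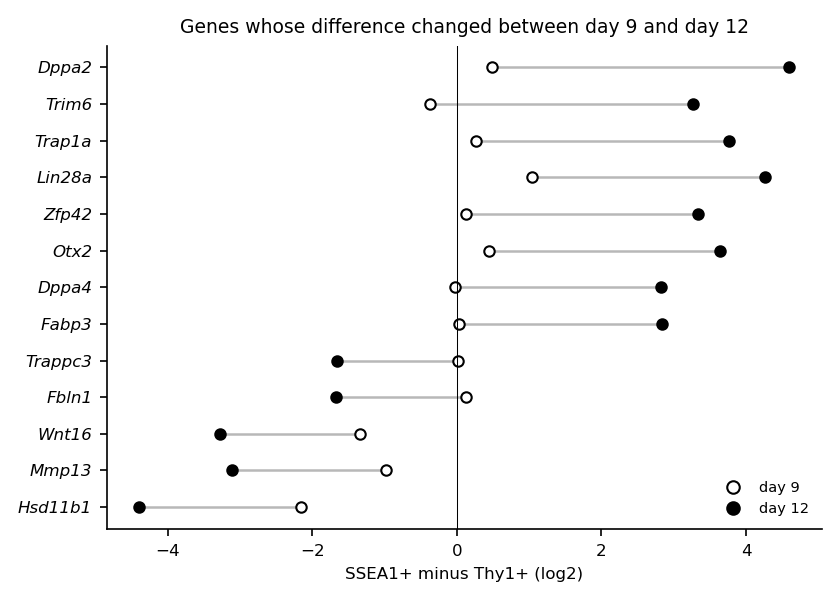
Log2 difference of SSEA1+ minus Thy1+ cells (x axis) on day 9 (open) and day 12 (filled) for the 13 genes named for a change between the days (y axis). Dppa2, Zfp42 and Dppa4 lie near 0 on day 9 and between 2.82 and 4.6 on day 12.

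Most late differences ran along the path between fibroblasts and iPS cells. That comparison shares no array with the late one, but both took each gene's spread from the same fit, so their calls are not independent. It called 3631 genes (30.8%), 1824 higher (15.4%) and 1807 lower (15.3%) in iPS cells. Of the 617 genes higher in SSEA1+ cells, 489 were higher in iPS cells than MEFs (79.3%, and 26.8% of the 1824) and 11 lower. Of the 873 lower in SSEA1+ cells, 698 were lower in iPS cells (80.0%, and 38.6% of the 1807) and 16 higher. Thy1+ cells were within 2-fold of the MEF mean on both days for 405 of the higher (65.6%) and 517 of the lower genes (59.2%). SSEA1+ cells were at least 2-fold above MEFs on both days at 502 of the 617 genes (81.4%), and at least 2-fold below MEFs at 616 of the 873 (70.6%). The called genes were chosen for a gap of at least 2-fold between the fractions on both days, which favours such levels in SSEA1+ cells. The shares of all genes at these levels, for either fraction, were not computed, so the counts against MEFs lack a background.

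Other late genes lay outside that path. SSEA1+ cells were at least 2-fold above both the MEF and the iPS mean on both days at 81 of the 617 genes (13.1%), and Thy1+ cells at 124 of the 873 (14.2%). Among the 15 and 15 named genes these were 5 and 4. The called genes were chosen for a higher level in the same fraction, which favours levels above MEFs and iPS cells. How many of all genes had such levels was not computed, so both shares lack a background. Krtdap, a secreted protein of differentiating keratinocytes, had 11.08 and 11.8 in SSEA1+ cells, against 7.18 and 7.96 in Thy1+ cells, and iPS arrays of 5.41 to 5.99. Cldn11, a tight-junction protein of myelin and Sertoli cells, had 8.52 and 8.44 in SSEA1+ cells, against 4.3 and 3.97 in Thy1+ cells, and 4.47 in GFP+ cells. The desmosomal gene Pkp1 had 9.05 and 9.52 in SSEA1+ cells, against 5.25 and 5.34 in Thy1+ cells and 4.46 to 4.74 in iPS cells. Fetub and Lrmp were the other 2. Of the Thy1+ genes, Fmo1, a flavin monooxygenase, had 6.43 and 6.24 in SSEA1+ cells, against 10.12 and 10.45 in Thy1+ cells, 5.26 and 5.46 in MEFs and 3.08 to 3.34 in iPS cells. Cpxm2 had 6.96 and 6.77 in SSEA1+ cells, against 10.3 and 11.13 in Thy1+ cells and 7.34 and 7.41 in MEFs, and Itgbl1 and Ifi205 were like it. The ETS factor gene Ehf was raised in both fractions, at 9.54 and 9.08 in SSEA1+ cells and 7.22 and 7.84 in Thy1+ cells, against MEF and iPS means of 3.39 and 3.12.

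**Figure D5:**
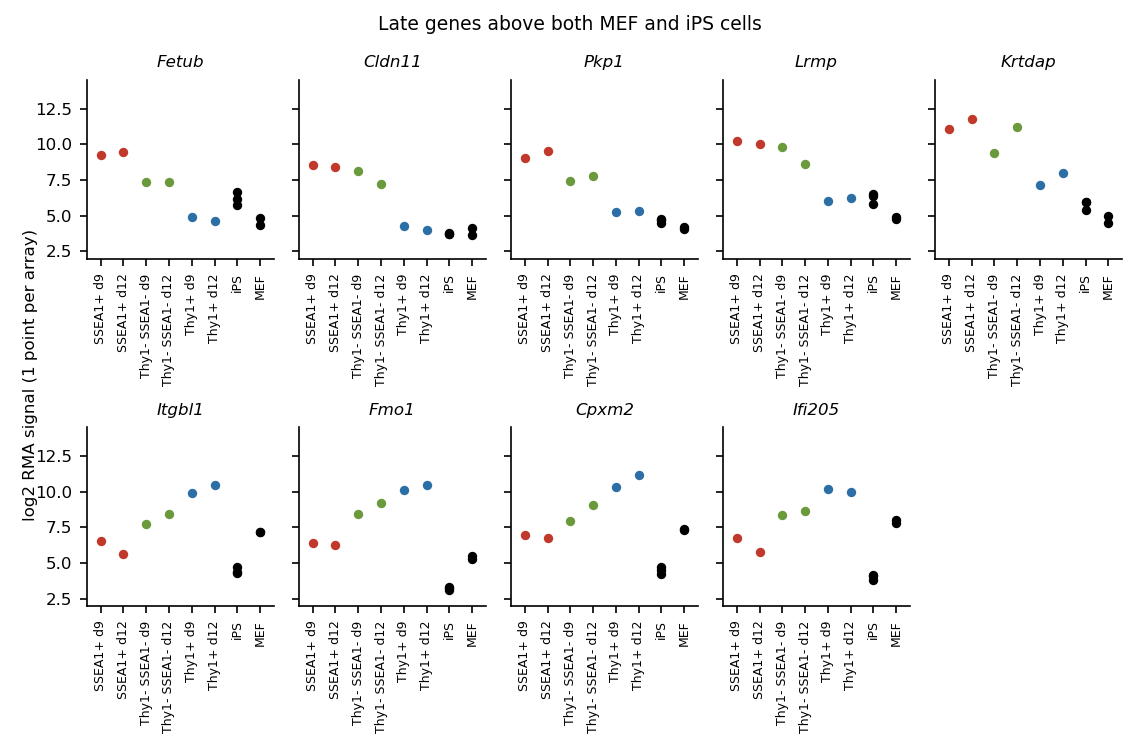
Log2 RMA signal (y axis) of the 9 named late genes that lay at least 2-fold above both MEF and iPS means in SSEA1+ cells (top row) or in Thy1+ cells (bottom row); each point is 1 array. Red is SSEA1+, green Thy1- SSEA1-, blue Thy1+ and black iPS cells and MEFs. In both rows the green points fall between the fractions.

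The Thy1- SSEA1- cells of the same days lay between the fractions on both days at 539 of the 617 higher genes (87.4%) and 838 of the 873 lower ones (96.0%). At the higher genes they were nearer to SSEA1+ cells in 83.0% on day 9 and 85.4% on day 12, and at the lower genes in 73.7% on day 9 and 43.5% on day 12. Aspn in these cells was 7.58 and 8.52, and Epcam 7.7 and 9.35. The called genes were chosen for a gap of at least 2-fold between the fractions on both days. A level in between is thus favoured, and its share over all genes was not computed. In the SSEA1+ GFP+ cells of day 12, 417 of the higher genes (67.6%) and 596 of the lower ones (68.3%) were further from Thy1+ cells than SSEA1+ cells were. The share over all genes was not computed here either. Nanog reached 11.49 and Pou5f1 10.89 in GFP+ cells, against 10.62 and 8.86 in SSEA1+ GFP- cells of that day.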

How the data were processed

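RNA was measured on 1-colour expression microarrays. The authors deposited log2 expression values computed with RMA, per the submitters' processing notes; other upstream steps are not given in the sources used here. Values were used as deposited, with no further scaling; whether all 24 arrays were normalized together is not given in the sources used here, which bears on every level compared between arrays. Of 22716 probe sets, 18003 had 1 gene symbol, 287 several and 4426 none. Each of 11807 genes was read by its probe set of highest mean signal. All 24 arrays were fitted with limma 3.58.1 (R 4.3.3) as 15 group means, which left 9 residual degrees of freedom. Each late group has 1 array and took its spread from the replicated groups. P-values were adjusted by Benjamini-Hochberg over all genes, with calls at 0.05 and a log2 difference of at least 1. The fit was tested on simulated data. No array pair held identical values. The precision is limited by the number of arrays.

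The text names the 15 genes of largest late difference in each direction, the 8 of largest change between days and between late and early days in each direction, and members of 38 gene lists. The comparison and lists were chosen with earlier results of these data known. Alternatives were the gene's mean over probe sets, median and quantile scaling, a filter on dim genes, no minimum fold, another prior, a replicate block, and leaving out arrays. Figures were drawn with matplotlib 3.10.9.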

Additional observations from a re-analysis of the deposited data

Results flagged for a closer look

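Differences between the fractions that themselves differed between times, by limma's test of that difference with Benjamini-Hochberg adjustment, are given here as values. Between day 9 and day 12, 30 genes passed, with 1 array behind each of the 4 values. The change was 4.12 for Dppa2, 3.63 for Trim6, 3.5 for Trap1a, 3.23 for Lin28a, 3.21 for Zfp42, 3.19 for Otx2, 2.85 for Dppa4 and 2.81 for Fabp3. It was -2.23 for Hsd11b1, -2.14 for Mmp13, -1.94 for Wnt16, -1.8 for Fbln1 and -1.66 for Trappc3. Without the day 6 Thy1+ M2 array, 122 genes passed.

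Between the late and the early days, 706 genes passed, and 202 without the day 12 arrays, 1067 without the day 6 Thy1+ M3 array, 321 against day 6 alone and 999 against day 3 alone. The late minus early value was 3.23 for Ripk4, 3.17 for Krtdap, 3.16 for Eras, 3.12 for Nr0b1, 3.0 for Cldn7, 2.93 for Kcnk1, 2.86 for Fetub and 2.86 for Zic2. It was -2.84 for Hsd11b1, -2.74 for Fmo2, -2.69 for Dkk2, -2.61 for Chodl, -2.51 for Nox4, -2.49 for Alcam, -2.48 for Abca8a and -2.44 for Avpr1a.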

How the results depend on the processing

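The count of 1490 late genes was 4155 with no minimum fold, and lay between 1342 with the mean of a gene's probe sets and 1549 with quantile scaling in the other settings that kept all late arrays. Left out in turn, the day 12 arrays gave 1537 and the day 9 arrays 2179. With no minimum fold, day 9 gave 2380, day 12 gave 3274 and the late minus early comparison 1200. The change between days gave 16 genes without the dimmest 25% of genes and 122 without the day 6 Thy1+ M2 array. Late minus early gave 321 against day 6 alone, 999 against day 3 alone and between 202 and 1067 with arrays left out in turn. The cause was not tested, other than that fewer genes or arrays enter some settings. Median scaling gave 688 higher and 824 lower late genes (45.5% higher, against 41.4%). Of 312 late differences recomputed for single genes, 14 lost their call with the mean of probe sets, 4 with median scaling (Id1, Igfbp3, Runx1 and Usp18) and 4 with quantile scaling (Id1, Lin28a, Runx1 and Usp18), 16 without the day 12 and 6 without the day 9 arrays, and 0 were reversed. Without the day 9 arrays, Sox2, Dppa5a, Zeb1, Hk2 and Fn1 gained a call. Of the 13 named changes between days, 4 lost their call without the iPS arrays (Dppa2, Hsd11b1, Wnt16 and Trappc3). Without the dimmest 25% of genes, 7 of the 13 kept their call, 2 lost it and the others were left out as dim. Of the named late minus early genes, 12 kept their call under that filter and the others were left out as dim.

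The labels do not say what the replicate numbers M2 and M3 stand for. Over 21 pairs of groups the correlation of deviations across all genes ran from -0.21 to 0.21 (median -0.01), and 5 were over 0.1. A pairing that moves few genes would not show in such correlations. With the number as a replicate block the counts were 1490 late (1489 shared), 1534 on day 9, 2183 on day 12, 22 between days and 688 late minus early. Wnt16, Fbln1 and Trappc3 lost their change between days under the block, and Wnt16 and Trappc3 under the other prior.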
